A study of Oryctolagus cuniculus with 9 samples.

Results

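Matrix metalloproteinases (MMPs) are zinc-dependent enzymes that cut the proteins of the extracellular matrix. Expression of MMP2, MMP9, MMP13, MMP14, MMP19 and MMP21 was followed in rabbit knee cartilage after a surgical defect. These 6 genes were taken by symbol from the 14870 genes listed in the deposited tables, and they are the members of the family with the most reads there.

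MMPs are mostly secreted as inactive precursors, which other proteases, or other MMPs, convert into active enzymes. Tissue inhibitors of metalloproteinases (TIMPs) bind the active site, and receptors such as LRP1 clear some of the secreted enzymes from the matrix. In growing bone, hypertrophic chondrocytes and osteoblasts make MMP13 and osteoclasts make MMP9 while mineralised cartilage is resorbed and replaced. In joints, MMP13 is the collagenase most often tied to the loss of type II collagen, the main fibre of hyaline cartilage. A transcript level says nothing about whether the enzyme was made, activated or inhibited.

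RNA sequencing covered 9 libraries from New Zealand white rabbits aged 4 to 5 months, taken 12 weeks after surgery. Osteochondral defects were drilled in the trochlear groove of both knees, where the right defect received a collagen and chondroitin sulphate scaffold (CLCS) and the left defect was left empty (untreated). There were 3 CLCS libraries, 3 untreated libraries and 3 libraries of healthy cartilage, all from animals with no genetic modification named in the labels. In the scheme of the study the healthy tissue came from the femoral condyle, so injury and joint site cannot be told apart in any comparison with healthy cartilage. Replicates are numbered 1 to 3 within a group by the labels, which do not tie the numbers to single rabbits, so the p-values measure the spread between these samples, whatever its source.

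Values are normalized reads, meaning the reads on a gene divided by the size factor of its library. Libraries held 724986 to 1226408 reads counted on genes, of which the 6 MMP genes took 68 to 347. The paper reports many times more sequenced and aligned reads per library. Why most of them are not in these counts was not tested. A single gene without a symbol held 1.49% to 49.4% of the counted reads of a library. The low MMP levels are therefore close to counting noise, and a level of 3 reads corresponds to 2.36 to 3.74 normalized reads. Levels of different genes were not compared with each other, because transcript lengths were not used here. ND6, which lies on the opposite strand from the other mitochondrial protein genes, held 86.0% to 94.4% of the reads on 13 such genes. No strand setting of the count is given in the sources used here. Whether reads were counted from the strand opposite to a gene was not tested, so the levels of all genes carry this doubt. Chondrocyte markers were present in all 9 libraries, but their summed level was 754 normalized reads in untreated replicate 3 against 5073 to 28090 in the other 8 libraries.

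Differences were tested with limma on log2 of the normalized reads plus 1, over all genes that passed a filter on low reads, and a gene was called at a Benjamini-Hochberg adjusted p under 0.05. Log2 fold changes are on that scale and understate the change of genes with few reads. In total 3496 genes were tested between untreated and healthy samples, 3294 between CLCS and healthy samples and 3275 between CLCS and untreated samples. The healthy libraries serve both comparisons with healthy cartilage, so the results of those comparisons are not independent of each other.

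MMP13 (ENSOCUG00000002481), also named collagenase 3, cuts intact fibrils of type II collagen. Of the 4 genes among the 6 that were tested in untreated against healthy samples, it was the only one called. Of all tested genes 2.55% were called in either direction and 1.34% as higher. With 4 to 5 reads in each healthy library, MMP13 passed the filter on low reads only through the libraries from defects. The same holds for MMP9 and MMP19 below. Healthy replicates 1 to 3 held 4.71, 4.06 and 3.61 normalized reads, untreated replicates 70.1, 71.0 and 116, and CLCS replicates 51.7, 27.6 and 39.8. All 6 libraries from defects lay above all 3 healthy libraries, and the 3 untreated libraries lay above the 3 CLCS libraries. Since these are bulk samples, more cells that make MMP13 and more MMP13 RNA per cell cannot be told apart, which holds for every gene below.

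MMP13 rose 16.5-fold in untreated against healthy samples (log2 fold change 4.04, SE 0.32, limma adjusted p 0.00513), ranking 2 by p among the tested genes. It was higher in 3 of 3 pairs of equal replicate number, with log2 differences of 3.64, 3.83 and 4.67. The call held in 6 of 6 fits that left out 1 library, with log2 fold changes from 3.81 to 4.17. The lowest of these, 3.81 with a limma adjusted p of 0.0181, came without untreated replicate 3.

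In CLCS against healthy samples MMP13 rose 7.72-fold (log2 fold change 2.95, SE 0.31, limma adjusted p 0.0104). It was again the only one called among the 4 of the 6 genes that were tested. Of all tested genes 3.16% were called in either direction and 2.13% as higher. The call was lost without CLCS replicate 1, the CLCS library with the most MMP13, where the log2 fold change was 2.74 and the limma adjusted p 0.0643. In that fit 0 genes of the whole table were called, with 436 at an unadjusted p under 0.05. The other 5 fits that left out 1 library kept the call.

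**Figure D1:**
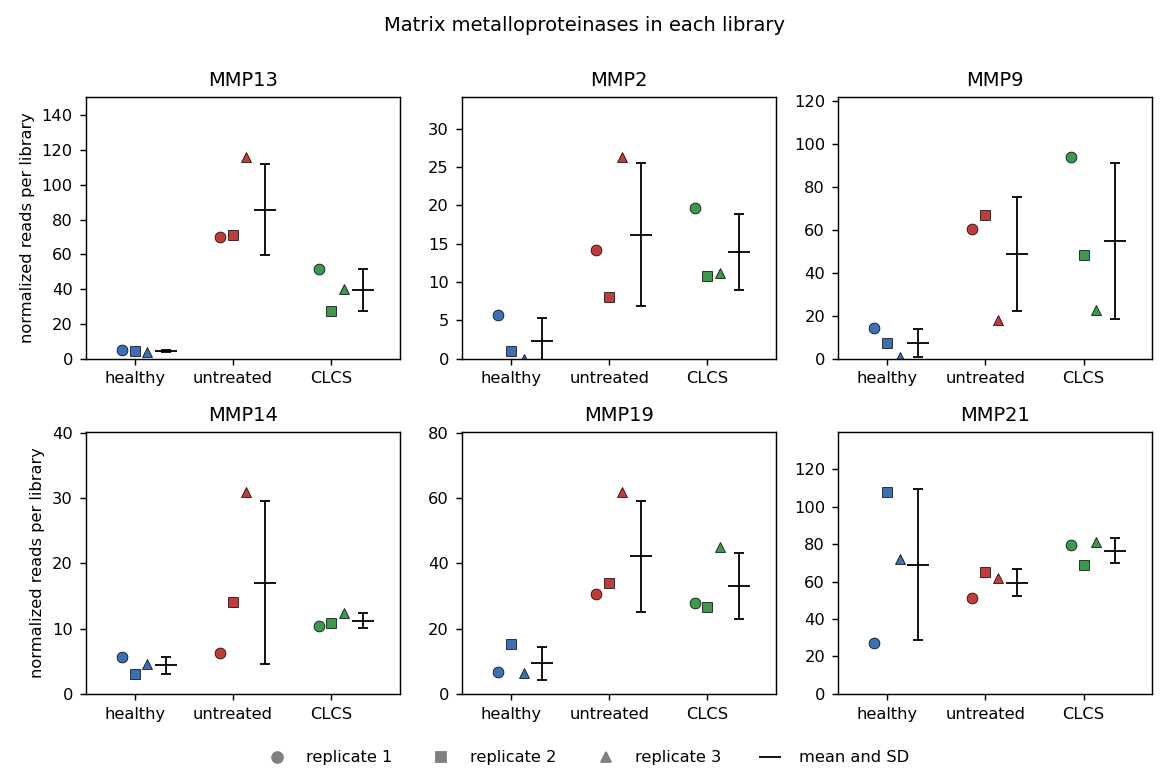
Normalized reads (linear axis) of each of the 6 MMP genes in each library, with circles, squares and triangles for replicates 1, 2 and 3 and bars for the mean and SD of 3 libraries; the lower end of the healthy MMP2 bar lies below 0 and is not drawn. MMP13, MMP2, MMP9, MMP14 and MMP19 were higher in all 6 libraries from defects than in any healthy library, while the healthy MMP21 values span from below to above all the others.

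The gelatinases MMP2 and MMP9 cut denatured collagen, the product that collagenases leave behind, and collagen IV of basement membranes. MMP2, gelatinase A (ENSOCUG00000006714), was nearly absent from healthy cartilage. Healthy replicates 1 to 3 held 5.65, 1.01 and 0 normalized reads, which are 6, 1 and 0 reads, and a count of 0 in replicate 3 allows up to 2.71 normalized reads for counting error alone. Untreated replicates held 14.2, 8.0 and 26.3 and CLCS replicates 19.6, 10.8 and 11.2. Neither defect group overlapped healthy cartilage, and the ranges of the defect groups overlapped each other.

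MMP2 did not pass the filter on low reads in either comparison with healthy samples, so it has no test among the genes reported. A limma fit over every listed gene, without that filter, gave a log2 fold change of 2.71 for untreated (SE 0.70, adjusted p 0.155) and of 2.60 for CLCS samples (SE 0.66, adjusted p 0.181). Neither passed. The difference between CLCS and untreated samples, where MMP2 passed the filter, was -0.11 on the log2 scale with a 95% interval from -1.17 to 0.95.

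MMP9, gelatinase B (ENSOCUG00000016101), is made in quantity by osteoclasts and stored by neutrophils. Healthy replicates 1 to 3 held 14.1, 7.10 and 0.903 normalized reads, untreated replicates 60.7, 67.0 and 18.1, and CLCS replicates 94.0, 48.2 and 22.4. Replicate 3 was the lowest library of each of the 3 groups, and even so every library from a defect exceeded every healthy one. Group means were 7.38 ± 6.62 in healthy, 48.6 ± 26.6 in untreated and 54.9 ± 36.3 in CLCS libraries (SD, n = 3 each).

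The fold change of MMP9 did not pass the test in either comparison with healthy cartilage. It was 2.81 on the log2 scale in untreated samples (SE 0.83, limma adjusted p 0.139) and 2.96 in CLCS samples (SE 0.81, limma adjusted p 0.108). With 1 library left out it ranged from 1.96 to 3.46 and from 2.11 to 3.61, lowest without healthy replicate 3, the library with 1 read, and it was 3.39 in untreated samples without untreated replicate 3. Between CLCS and healthy samples equal replicate numbers varied together weakly across genes (correlations of 0.28, 0.14 and 0.19) and were taken as pairs in a further fit. The labels do not tie these numbers to single rabbits, so the pairing is not established. With the replicate number as a block the same log2 fold change of 2.96 had an SE of 0.34 and a limma adjusted p of 0.0144. That value is past the threshold but rests on the pairing. The log2 differences within equal numbers were 2.65, 2.60 and 3.62.

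**Figure D2:**
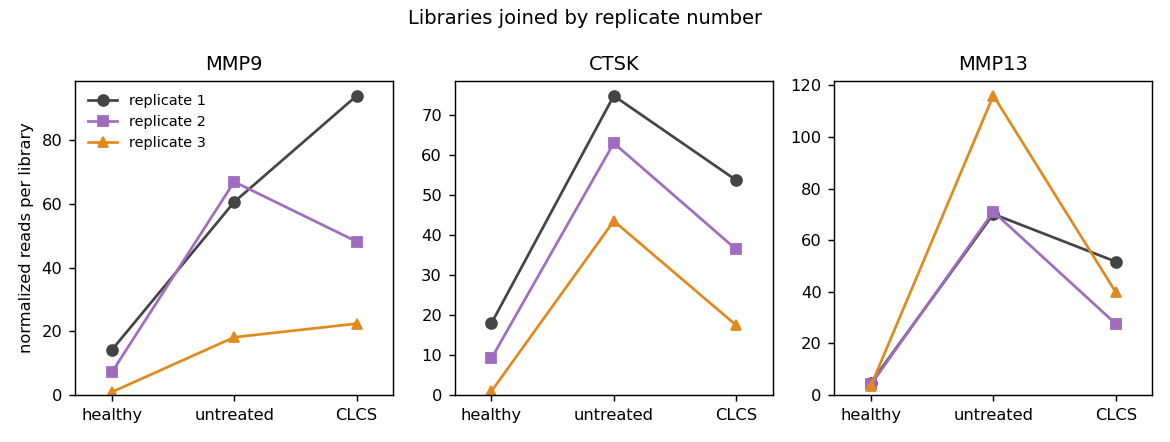
Normalized reads (linear axes) of MMP9, CTSK and MMP13 in the healthy, untreated and CLCS library of each replicate number, joined by lines; the labels do not say that a number marks a rabbit. Replicate 3 is the lowest library of each group for MMP9 and CTSK, which holds for MMP13 in healthy cartilage alone, where untreated replicate 3 is the highest of all 9 libraries at 116.

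MMP14 (ENSOCUG00000010244) is a membrane-type MMP that stays on the cell surface, cuts fibrillar collagen there and activates the precursors of MMP2 and MMP13. Healthy replicates 1 to 3 held 5.65, 3.04 and 4.52 normalized reads, untreated replicates 6.30, 14.0 and 30.8, and CLCS replicates 10.3, 10.8 and 12.5. The CLCS libraries lay close together at 11.2 ± 1.11 (SD, n = 3), whereas the untreated libraries ran from just above healthy cartilage to the highest value of all. The groups from defects did not overlap healthy cartilage, although untreated replicate 1 and healthy replicate 1 were 8 and 6 reads.

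MMP14 likewise did not pass the filter against healthy samples. Without it, limma gave log2 fold changes of 1.52 for untreated (SE 0.56, adjusted p 0.335) and 1.20 for CLCS samples (SE 0.42, adjusted p 0.329), neither past the threshold. Between CLCS and untreated samples it was -0.32 with a 95% interval from -1.51 to 0.87. Without untreated replicate 3 that difference turned to 0.22.

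MMP19 (ENSOCUG00000005109) is a secreted MMP that cuts basement membrane proteins and also aggrecan, the large proteoglycan of cartilage. Healthy replicates 1 to 3 held 6.60, 15.2 and 6.32 normalized reads, untreated replicates 30.7, 34.0 and 61.7, and CLCS replicates 27.9, 26.6 and 44.8. The highest healthy library stayed below the lowest library from a defect, and the defect groups overlapped. In the RefSeq annotation of mOryCun1.1, an assembly other than the one used for alignment, LOC100341932 overlaps MMP19, and no strand setting of the count is given in the sources used here, so the MMP19 reads are uncertain between these genes.

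The log2 fold change of MMP19 was 2.09 in untreated samples (SE 0.44, limma adjusted p 0.0627) and 1.78 in CLCS samples (SE 0.40, limma adjusted p 0.0679), short of the threshold in both. Of the fits that left out 1 library, 1 of 6 in CLCS and 0 of 6 in untreated samples passed. The fit that passed lacked healthy replicate 2, the healthy library with the most MMP19 (log2 fold change 2.15, limma adjusted p 0.0363). Without untreated replicate 3 the log2 fold change in untreated samples was 1.79.

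MMP21 (ENSOCUG00000001680) is a secreted MMP known for its part in setting the left-right axis of the embryo. Healthy replicates 1 to 3 held 27.3, 108 and 72.3 normalized reads, untreated replicates 51.2, 65.0 and 61.7, and CLCS replicates 79.6, 68.9 and 80.9. Both defect groups lay within the wide healthy range, so MMP21 was the member without a separation from healthy cartilage. The log2 fold change was -0.02 in untreated samples (95% interval -1.20 to 1.16) and 0.34 in CLCS samples (95% interval -0.79 to 1.48), with limma adjusted p of 0.994 and 0.767. The gene UROS lies within 1000 bases of MMP21 in the annotation of mOryCun1.1, and no gene of that symbol is listed. Whether any reads counted on MMP21 came from UROS was not tested.

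Read together, 5 of the 6 genes lay entirely above healthy cartilage in untreated samples, where 10% of the genes with at least 15 reads in the 6 libraries (11.3% of the tested genes) did so. The same 5 of 6 did in CLCS samples, against 10.1% of such genes (12.2% of the tested genes). Over all 9 libraries, the 6 libraries from defects exceeded the 3 healthy ones for these 5 genes and for 5.61% of 7560 genes with at least 15 reads. The 6 genes were chosen with earlier results of these data known, and they are the family members with the most reads. For these 5 genes most of those reads came from the defects. The shares therefore only describe the genes and are no test of the family. For a single gene the exact two-sided permutation test of 3 against 3 libraries gave p = 0.1 in each case, the smallest it can give. The summed level of all 6 genes was 64.1 to 138 normalized reads in healthy, 233 to 315 in untreated and 193 to 283 in CLCS libraries.

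**Figure D3:**
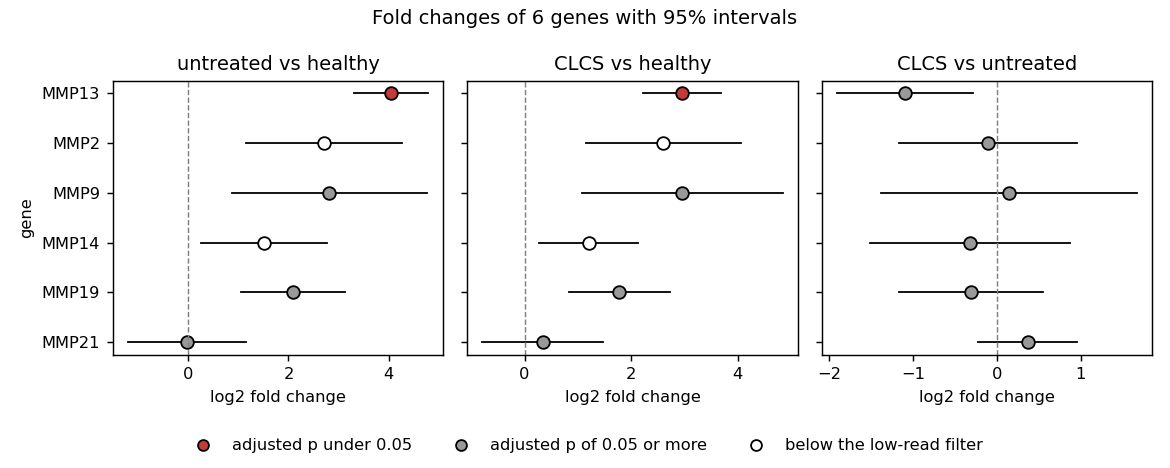
Log2 fold change of each MMP gene (points) with its 95% interval (lines) in the 3 comparisons, on the scale of log2 of normalized reads plus 1; red points passed an adjusted p under 0.05, grey points did not, and open points come from the limma fit without the low-read filter. In these fits, which have no replicate block, MMP13 alone passed against healthy cartilage, at 4.04 and 2.95, and all intervals of CLCS against untreated except that of MMP13 include 0.

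The comparison of CLCS with untreated samples asked whether the scaffold altered these genes within the defect. Scaffolds were placed in right knees and left knees stayed empty, so scaffold and body side cannot be told apart in it. None of the 6 was called, as was the case for all 3275 tested genes (0%). By limma 95 genes had an unadjusted p under 0.05, by edgeR 88 with 0 called and by DESeq2 71 with 0 called. With the replicate number as a block limma gave 164 such genes, again with 0 called. The estimates and intervals of this comparison given here have no such block. MMP13 was the member with the largest difference, at 0.468 of the untreated level (log2 fold change -1.10, 95% interval -1.90 to -0.29, limma unadjusted p 0.0146 and adjusted p 0.996). Its mean was 85.7 ± 26.3 normalized reads in untreated and 39.7 ± 12.1 in CLCS samples (SD, n = 3 each).

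MMP13 was 1 of 6 genes lying entirely lower in CLCS than in untreated samples, against 4.52% of tested genes, and MMP21 was 1 of 6 lying entirely higher, against 3.82%. Within equal replicate numbers the log2 difference of MMP13 was -0.43, -1.33 and -1.52. Without untreated replicate 3 the log2 fold change of MMP13 was -0.86 (limma adjusted p 0.830). With all libraries the log2 fold change of MMP21 was 0.37 (95% interval -0.22 to 0.95). The intervals of MMP9 (-1.37 to 1.67 around 0.15) and MMP19 (-1.17 to 0.55 around -0.31) are wide, so the data do not show that these genes were alike in the defect groups. Without untreated replicate 3 the log2 fold change was -0.44 for MMP9 and -0.01 for MMP19.

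Of a list of 24 MMP family symbols, 15 were listed in the tables, and the 9 beyond the 6 genes above reached at most 11 reads in any library. MMP24, a membrane-type MMP, lay between 3.10 and 9.0 normalized reads with 52 reads in all 9 libraries. MMP15 had 42 reads in all and MMP16 23, both also membrane-type. MMP3 and MMP10, the stromelysins, which can activate collagenase precursors, had 2 reads and 1 read in all. None of the 9 passed the filter in any comparison. The collagenases MMP1 and MMP8 were not analysed here.

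Among 6 inhibitor genes, 5 were listed and 1 was tested. TIMP3, which binds to the matrix and also inhibits aggrecanases, held 15.1, 7.10 and 2.71 normalized reads in healthy, 15.8, 9.0 and 19.9 in untreated and 11.4, 14.8 and 17.4 in CLCS replicates 1 to 3. Its groups overlapped, with log2 fold changes of 0.95 (SE 0.57, limma adjusted p 0.490) in untreated and 0.96 (SE 0.52, limma adjusted p 0.391) in CLCS samples. TIMP1 held 2.83, 0 and 2.71 normalized reads in healthy, 3.15, 7.0 and 4.53 in untreated and 1.03, 1.97 and 2.49 in CLCS replicates. Every untreated TIMP1 value exceeded every CLCS and healthy value, but these are at most 7 reads and the gene did not pass the filter. TIMP2, the partner of MMP14 in MMP2 activation, was not analysed here.

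Of 10 genes for the activation of MMP precursors, 9 were listed, 3 were tested and 0 were called in each comparison. PLAT, a plasminogen activator, held 62.2 to 119 normalized reads in healthy, 78.8 to 124 in untreated and 116 to 178 in CLCS libraries. The median log2 fold change of the 3 tested genes was 0.10 in untreated and 0.64 in CLCS samples, against -0.02 and -0.08 over all tested genes. FURIN, which cuts the precursor of MMP14, held at most 6.09 normalized reads in any library.

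Of 7 genes for uptake and surface docking of MMPs, 6 were listed, and 0 of the 3 tested were called against healthy samples. LRP1, the receptor that clears MMP13 and MMP9, held 142, 68.0 and 21.7 normalized reads in healthy, 40.2, 19.0 and 58.9 in untreated and 30.0, 21.6 and 31.1 in CLCS replicates. These ranges overlapped in each comparison, with a log2 fold change of -0.73 (SE 0.72, limma adjusted p 0.714) in untreated and -1.11 (SE 0.62, limma adjusted p 0.415) in CLCS samples. THBS1, a matrix glycoprotein that takes part in MMP uptake through LRP1, held 43.4 to 122 in healthy, 14.5 to 36.2 in untreated and 12.4 to 45.3 in CLCS libraries (log2 fold changes -1.55 and -1.38, limma adjusted p 0.159 and 0.260). The median of the 3 tested genes was -0.73 in untreated and -1.11 in CLCS samples.

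Of 19 transcription factors that act on MMP genes, 13 were listed, 2 were tested against healthy samples and 0 were called. CEBPB, a factor at the MMP13 promoter, held 30.2, 34.5 and 25.3 normalized reads in healthy, 5.51, 4.0 and 34.5 in untreated and 6.20, 4.92 and 22.4 in CLCS replicates. Its level was low in replicates 1 and 2 of both defect groups and near that of healthy cartilage in replicate 3 of both, with limma adjusted p of 0.341 and 0.157. FOS, which with JUN forms the factor AP-1, held 65.3 normalized reads in untreated replicate 3 and 0 to 11.2 in the other 8 libraries. RUNX2, the main activator of MMP13 in bone and hypertrophic cartilage, was not analysed here.

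Of 20 signals and receptors that induce MMP genes, 15 were listed, 5 were tested against healthy samples and 0 were called. TNFRSF1A, the main receptor for tumour necrosis factor, held 11.3, 38.6 and 19.0 normalized reads in healthy, 65.4, 76.0 and 29.9 in untreated and 72.3, 46.2 and 52.3 in CLCS replicates. Its log2 fold change was 1.34 (limma adjusted p 0.264) in untreated and 1.42 (limma adjusted p 0.157) in CLCS samples. OSMR, the receptor for oncostatin M, held 11.3 to 33.4 in healthy, 5.0 to 8.16 in untreated and 1.03 to 9.96 in CLCS libraries, and did not pass (limma adjusted p 0.174 and 0.247). IL1A, the interleukin 1 alpha gene, lay between 34.9 and 68.0 normalized reads in all 9 libraries.

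The matrix proteins that MMPs cut were represented by 28 genes, of which 23 were listed and 21 tested. In untreated samples 2 rose and 0 fell, namely COL1A1 (log2 fold change 3.79, limma adjusted p 0.0398) and COL1A2 (3.68, limma adjusted p 0.0292), the chains of type I collagen of fibrous tissue and bone. In CLCS samples 3 rose and 0 fell, namely COL1A1 (3.95, limma adjusted p 0.0277), COL1A2 (3.53, limma adjusted p 0.0288) and COL4A2 (1.99, limma adjusted p 0.0444), a chain of basement membrane collagen IV. Few of these calls held when 1 library was left out. Calls over all tested genes also fell, from 89 to between 2 and 7 in untreated and from 104 to between 0 and 81 in CLCS samples. In these fits COL1A1 kept log2 fold changes of 3.11 to 4.48 in untreated samples, and COL4A2 of 1.73 to 2.26 in CLCS samples. With 1 library left out, COL1A1 was called in 0 of 6 fits and COL1A2 in 1 of 6 in untreated samples, and COL1A1, COL1A2 and COL4A2 in 1 of 6 each in CLCS samples. The median log2 fold change of the 21 genes was -0.60 in untreated and 0.35 in CLCS samples. Of all tested genes 1.34% in untreated and 2.13% in CLCS samples were called as higher.

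COL2A1, the type II collagen that MMP13 cuts, held 8610, 7968 and 6874 normalized reads in healthy, 8816, 4062 and 458 in untreated and 8971, 9082 and 25534 in CLCS replicates. The untreated library with the most MMP13, replicate 3, was the one with the least COL2A1. With limma, COL2A1 did not pass in untreated (log2 fold change -1.61, adjusted p 0.504) or CLCS samples (0.71, adjusted p 0.462), and without untreated replicate 3 the former was -0.38. ACAN, the aggrecan gene, held 307 to 574 normalized reads in healthy, 99.7 to 280 in untreated and 248 to 524 in CLCS libraries. Across CLCS and untreated samples 0 of the 21 substrate genes were called.

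Summed levels of osteoclast, osteoblast and fibroblast markers were higher in all 6 libraries from defects than in the healthy ones, and their part in the MMP levels was not tested. Of 10 osteoclast markers 8 were listed, with a summed level of 6.32 to 22.6 normalized reads in healthy, 54.4 to 108 in untreated and 27.4 to 80.6 in CLCS libraries. The marker CTSK, the collagen-cutting cathepsin K of osteoclasts, held 17.9, 9.13 and 0.903 in healthy, 74.8, 63.0 and 43.5 in untreated and 53.7, 36.4 and 17.4 in CLCS replicates. CTSK made up most of the osteoclast sum in every library from a defect and was the only osteoclast marker tested. It passed the filter on low reads only through the libraries from defects. Without CTSK the sum of healthy replicate 2 was above those of untreated replicate 3 and CLCS replicate 3. As with MMP9, replicate 3 was lowest for CTSK in each group, and the fold change of CTSK did not pass (log2 fold change 3.07 and 2.23, limma adjusted p 0.0980 and 0.225). DCSTAMP, needed for osteoclast fusion, was at 0 in all 3 healthy libraries, but it did not pass the filter on low reads in any comparison. ACP5 was not analysed here.

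Monocyte and macrophage markers, 11 of 13 listed, summed to 50.7 to 63.1 normalized reads in healthy, 59.1 to 129 in untreated and 59.8 to 80.7 in CLCS libraries, the highest being untreated replicate 3. Neutrophil markers, 4 of 8 listed, stayed at 4.06 to 6.32, 2.72 to 7.88 and 6.20 to 8.86, with S100A9 and LTF at 0 in all 3 healthy libraries. Endothelial markers, 7 of 7 listed, summed to 8.12 to 16.0, 6.35 to 20.5 and 7.47 to 21.7, with VWF and PECAM1 at 0 in all 3 healthy libraries and EMCN at 0 in all 6 libraries from defects. No neutrophil or endothelial marker passed the filter on low reads in any comparison, so these zeros are not tested differences. Skeletal muscle markers reached 20.3 in healthy and 6.0 in defect samples, and the only listed red cell marker 3.61 in any library.

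Markers of hypertrophic chondrocytes, 6 of 7 listed, summed to 354 to 904 normalized reads in healthy, 814 to 2760 in untreated and 1763 to 2294 in CLCS libraries. Osteoblast markers, 8 of 9 listed and partly the same genes, summed to 308 to 921, 986 to 2984 and 1864 to 2430. IBSP, bone sialoprotein, made up most of both sums, and it was called in CLCS (log2 fold change 2.46, limma adjusted p 0.0277) but not in untreated samples (2.24, limma adjusted p 0.125). That call held in 2 of 6 fits that left out 1 library, and IBSP was not called between CLCS and untreated samples (limma adjusted p 0.996). COL10A1, the type X collagen that defines hypertrophic chondrocytes, lay at 79.2 to 108 in healthy, 38.6 to 112 in untreated and 20.7 to 121 in CLCS libraries. The COL10A1 ranges therefore overlapped where those of MMP13 did not.

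Fibroblast markers, 10 of 10 listed, summed to 489 to 709 normalized reads in healthy, 1721 to 4938 in untreated and 2409 to 3980 in CLCS libraries. Of 6 tested, 3 rose in both comparisons with healthy cartilage: COL1A1, COL1A2 and POSTN, the matrix protein periostin. Over all tested genes 1.34% in untreated and 2.13% in CLCS samples were called as higher. TNC, COL3A1 and PDGFRA were not called, and PDGFRA alone of the 6 had log2 fold changes below 0 (-0.12 and -0.67). With 1 library left out POSTN was called in 1 of 6 fits in untreated and 3 of 6 in CLCS samples. POSTN, with 6.60, 1.01 and 0 normalized reads in healthy replicates, followed the order of MMP2 there. It passed the filter on low reads only through the libraries from defects. Chondrocyte markers, 10 of 15 listed, summed to 8183 to 10832 in healthy, 754 to 9995 in untreated and 10011 to 28090 in CLCS libraries, with 0 of 7 tested genes called.

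**Figure D4:**
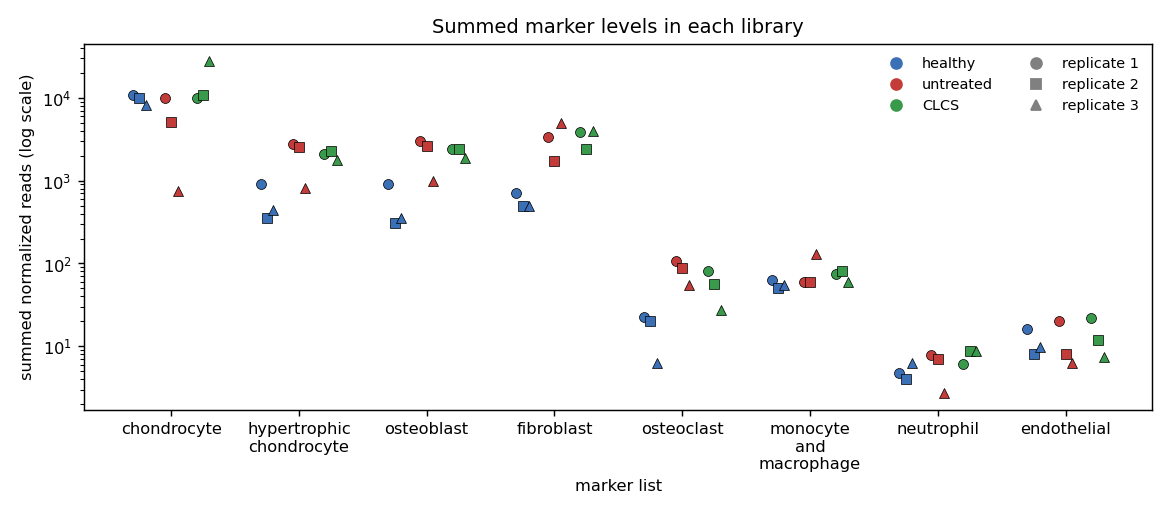
Summed normalized reads (log axis) of the listed marker genes of 8 cell types in each library, coloured by group and shaped by replicate number. Osteoclast, osteoblast, hypertrophic chondrocyte and fibroblast sums are higher in most or all libraries from defects, neutrophil and endothelial sums stay at 21.7 or below, and untreated replicate 3 has the lowest chondrocyte sum, 754.

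Genes with the most similar pattern were ranked by the Pearson correlation of log2 of normalized reads plus 1 over the 9 libraries, among 3812 genes. The libraries share the groups and their depth, and healthy and defect libraries form separate clusters for most of these genes, so the values only rank genes. MMP2 ranked closest to COL1A1 (r = 0.979), with POSTN (0.968) and the osteocalcin gene BGLAP (0.966) among the first 5. MMP9 was closest to B4GALNT1 (0.967) and DSG1 (0.965), with CTSK in place 4 (0.946). MMP13 was closest to PMCH (0.976) and PPT1 (0.971), with GLI1, a target of hedgehog signalling, in place 4 (0.964).

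MMP14 was closest to a gene without a symbol, ENSOCUG00000029074 (r = 0.978), with PHOSPHO1, a phosphatase of mineralising matrix, in place 4 (0.951). MMP19 was closest to RNF167 (0.984) and NPAS1 (0.977). MMP21 was closest to HYI (0.978), which held 639, 2005 and 1476 normalized reads in healthy replicates 1 to 3 and thus shared the low replicate 1 and the high replicate 2 of MMP21.

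**Figure D5:**
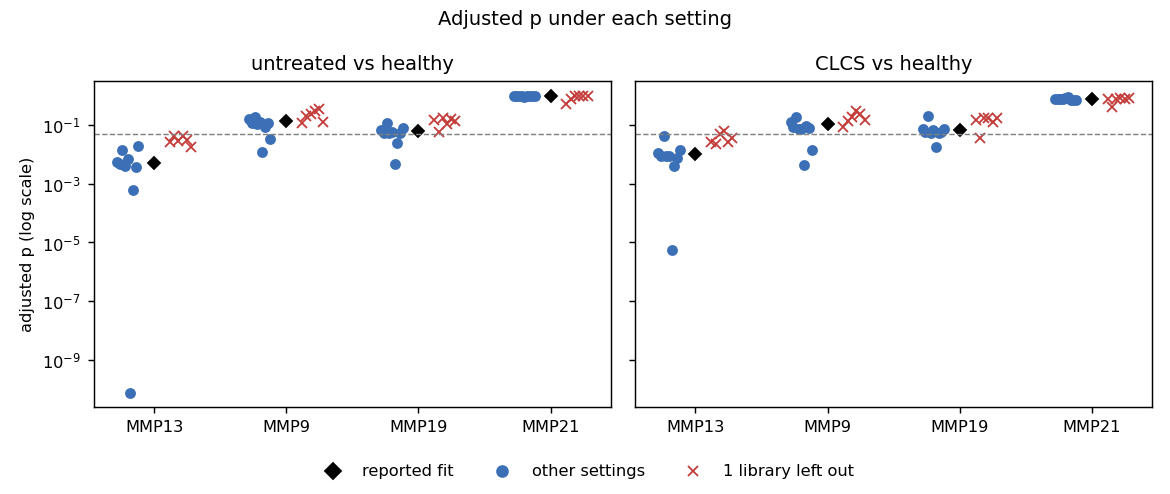
Adjusted p (log axis) of the 4 MMP genes that passed the filter in the comparisons with healthy cartilage, in the reported limma fit (black), under 9 other settings (blue) and in the 6 fits that left out 1 library (red), with the threshold of 0.05 dashed. In these comparisons MMP13 stays under the threshold except without CLCS replicate 1 (0.0643), MMP9 and MMP19 lie on either side of it, and MMP21 stays above it.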

How the data were processed

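RNA sequencing of 9 libraries was read from tables in which, per the labels and methods, the authors aligned polyA reads to OryCun2.0 with TopHat and Bowtie, counted them per gene with eXpress and normalized with DESeq2. Versions and strand setting are not given in the sources used here. The deposited signal is a gene's reads divided by the library's size factor, and 100% of values came out whole as reads (tolerance 0.01 reads).

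The low-read filter was filterByExpr of edgeR on the recovered reads of a pair of groups. Tests used limma 3.58.1 in R 4.3.3, lmFit and eBayes with a pseudocount of 1, edgeR 4.0.16 and DESeq2 1.42.0 as alternatives, and were tested on simulated data. Depth alone limits precision to counting error, and floors cover only that. The design allowed for normalized values in place of counts. The authors' own fold changes and p-values in the tables were not used.

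Members and gene lists were chosen with earlier results of these data known. Named were the 6 genes, listed genes of the fixed lists, neighbours within 1000 bases and the 5 most similar genes of each member, with other neighbours named after their values were seen. Deviations from group means correlated between equal replicate numbers at 0.28, 0.14 and 0.19 (CLCS and healthy) and 0.25, 0.33 and 0.30 (CLCS and untreated), all over 0.1, so these were taken as pairs. For untreated and healthy they were 0.29, 0.13 and -0.04, so those were not. Pairs of CLCS with both other groups would also make untreated and healthy libraries pairs, and the labels tie no number to a rabbit. The pairing is therefore not established in any comparison.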

Additional observations from a re-analysis of the deposited data

How the results depend on the processing

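MMP13 was called in 9 of 9 other settings in both comparisons with healthy cartilage, and the directions of the tested MMP genes held in those settings. The number of the 6 genes called in untreated against healthy samples, 1 as reported, was 3 with DESeq2 (MMP9 at adjusted p 0.0118, MMP19 at 0.00469), 2 with all 9 libraries in 1 limma fit (MMP19 at 0.0245) and 2 with the replicate block in limma (MMP9 at 0.0342), and 1 to 1 when 1 library was left out. In CLCS against healthy samples, 1 as reported, it was 3 with DESeq2 (MMP9 at 0.00429, MMP19 at 0.0180), 2 with the replicate block, and 0 to 2 when 1 library was left out. It was 0 in CLCS against untreated samples under all settings. The replicate block changed no other call of a member, and equal numbers are not shown to be pairs in any comparison. Over all tested genes the calls in untreated samples, 89, became 20 without the low-read filter, 271 with DESeq2, 173 with all 9 libraries and 2 to 7 when 1 library was left out. In CLCS samples the 104 became 13, 253 with DESeq2, and 0 to 81. Counted over the gene lists, 4 and 6 called genes became 13 and 12 with DESeq2, 2 and 2 without the filter, and 7 with the replicate block in untreated samples, and ranged from 1 to 3 and from 0 to 7 when 1 library was left out. The direction of MMP21 turned in untreated against healthy samples without healthy replicate 2 (0.40), healthy replicate 3 (0.11) or untreated replicate 1 (0.08), within a range of -0.57 to 0.40 over the fits without 1 library, and in CLCS against healthy samples without healthy replicate 1 (-0.21), within -0.21 to 0.76. In CLCS against untreated samples it turned for MMP2 without untreated replicate 3 (0.30), CLCS replicate 2 (0.03) or CLCS replicate 3 (0.01; range -0.50 to 0.30), for MMP9 without untreated replicate 3 (-0.44) or CLCS replicate 1 (-0.35; range -0.44 to 0.67) and for MMP14 without untreated replicate 3 (0.22; range -0.84 to 0.22). The cause was not tested. The low number of counted reads limits the healthy levels, at 7 reads for MMP2, 13 for MMP13 and 14 for MMP14 over the 3 libraries.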

Other observations

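In the annotation of mOryCun1.1 the genes SLC12A5, ZNF335 and NCOA5 lie near MMP9, and they were looked at after their values were seen. NCOA5, a coactivator of nuclear receptors, held 8.48, 29.4 and 8.13 normalized reads in healthy, 62.2, 141 and 54.4 in untreated and 82.7, 48.2 and 41.1 in CLCS replicates 1 to 3. As for MMP9, all libraries from defects lay above all healthy ones, which held for 5.61% of 7560 genes with at least 15 reads. ZNF335 went the other way, with 40.7 to 120 in healthy, 11.8 to 40.2 in untreated and 13.7 to 31.5 in CLCS samples. SLC12A5 had at most 1 read in any library. Near MMP21, the closer gene EDRF1 held 29.2, 32.5 and 32.5 normalized reads in healthy replicates. BCCIP, which lies farther away, was 1 of the 5 genes most similar to it (r = 0.921) and held 77.3, 168 and 125 normalized reads in healthy replicates, with the lowest value in replicate 1 and the highest in replicate 2, as MMP21 had.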
